A study of Homo sapiens with 8 samples.

Results

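The HSP70 family genes and their HSP110-type relatives were followed in MM.1S cells, an established human multiple myeloma (MM) cell line, with and without bortezomib and FeAc. The 10 members were taken by name (HSPA1A, HSPA1B, HSPA1L, HSPA2, HSPA4, HSPA4L, HSPA6, HSPA8, HSPA9 and HSPH1) from the 60671 gene IDs listed, and all 10 were found. All cells were labelled wild type and collected at 12 h, in 4 groups of 2 samples: cells given the vehicle, cells given FeAc, which supplied extra iron, cells given bortezomib, a proteasome inhibitor used against MM, and cells given bortezomib plus FeAc. The design asks whether iron alters the transcript response of MM cells to the proteasome inhibitor, in 1 cell line grown without stromal cells. Bortezomib doses are not given in the labels. The expression values name no unit and were read as TPM from their sums. TPM is a measure of transcript abundance that is divided by transcript length and scaled to the same sum in every sample. If that reading holds, levels can be compared between genes.

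HSP70 proteins bind unfolded stretches of other proteins and release them in a cycle driven by ATP, with J-domain proteins that deliver the client and exchange factors that eject the spent nucleotide. Some members are made at all times, such as the cytosolic HSPA8 and the mitochondrial HSPA9, and others are induced when unfolded proteins accumulate, chiefly HSPA1A, HSPA1B and, in human cells, HSPA6. The induction is driven by heat shock factor 1, which binds repeats of the unit GAA in alternating orientation, and proteasome inhibition is a known trigger of it.

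Plasma cell markers fitted the label of the line. All 8 (SDC1, CD38, TNFRSF17, IRF4, PRDM1, XBP1, SLAMF7 and MZB1) were at 1 TPM or more in every sample, and together they held 2900 to 3041 TPM without bortezomib and 1719 to 2332 TPM with it. The T cell and monocyte lists summed to at most 1.35 TPM each in any sample. The 4 stromal cell markers summed to 1.54 to 2.52 TPM without bortezomib and 5.92 to 8.80 TPM with it, mostly COL1A1 and PDGFRB. COL1A1 was higher in each sample with bortezomib, at 3.02 to 4.89 TPM, than without it, at 0.69 to 1.0 TPM. PDGFRB overlapped, with 1.72 TPM in FeAc replicate 2 and 1.48 TPM in bortezomib replicate 2. CXCL12 went the other way, from 0.11 to 0.39 TPM without bortezomib to 0 to 0.09 TPM with it. COL1A2 was at 0.22 TPM or less. The 2 erythroid markers summed to 9.70 to 13.5 TPM without bortezomib and 1.62 to 5.38 TPM with it, nearly all of it HBB, with ALAS2 at 0.2 TPM or less. The sums of both lists thus moved with bortezomib without overlap, at levels far below those of the plasma cell list. The part of these markers in the results was not tested. The mitochondrially encoded transcripts took 2.99% to 14.3% of the TPM of a sample, with the lowest share in replicate 1 of bortezomib plus FeAc and 10.1% in its replicate 2. The values with bortezomib and those without it stood in separate tables, so that any difference between the tables and the effect of bortezomib cannot be told apart. RNA of whole cultures was measured, and a change in every cell cannot be told apart from a change in a share of the cells.

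Heat shock elements near the start of the most abundant or most strongly induced members are shown, so that the promoter sequence stands beside the levels. In windows from 250 bases before to 50 bases after the RefSeq transcription start (GRCh38.p14), a heat shock element of 3 units (GAANNTTCNNGAA or TTCNNGAANNTTC) occurred in 172 of 35116 windows of all genes, or 0.49%. It occurred in 2 of the 10 members, HSPA6 and HSPA8, and HSPA8 held 2 of them. A shorter form of 2 units (GAANNTTC or TTCNNGAA), which lies within every 3-unit match, occurred in 13.5% of all windows and also in those of HSPA1A, HSPA1B, HSPA1L, HSPA9 and 1 of 3 windows of HSPA4L. HSPA2, HSPA4 and HSPH1 held neither form in these windows. The stretches below run from 40 bases before the element to 20 bases after it, 5′ to 3′ on the strand of the gene, with the units in capitals.
HSPA1A, chr6:31815397-31815464, plus strand: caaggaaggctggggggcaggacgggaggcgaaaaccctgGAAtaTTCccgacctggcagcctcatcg
HSPA1B, chr6:31827593-31827660, plus strand: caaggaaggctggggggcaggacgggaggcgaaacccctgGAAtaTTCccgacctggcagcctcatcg
HSPA6, chr1:161524426-161524498, plus strand: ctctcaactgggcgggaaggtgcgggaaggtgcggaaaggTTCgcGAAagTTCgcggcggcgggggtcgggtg
HSPA8, chr11:123062159-123062231, minus strand: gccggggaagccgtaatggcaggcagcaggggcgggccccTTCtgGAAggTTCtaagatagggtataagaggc
The stretches of HSPA1A and HSPA1B were identical at 67 of 68 bases. The element of HSPA6 began 74 bases before the start and that shown for HSPA8 55 bases before it. HSPA1L starts 260 bases from HSPA1A on the opposite strand, and the 2-unit match in its window is the same site as that of HSPA1A. Only exact matches were counted, so that an element with a changed base in a unit was missed. A match describes the letters of a window and does not show that a factor was bound there.

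Without bortezomib the family was carried by its constitutive members. In both the vehicle and the FeAc group the order of mean levels was HSPA8, HSPA9, HSPH1, HSPA4, HSPA1B, HSPA4L and HSPA1A. HSPA1L and HSPA2, each under 1 TPM, came next, and HSPA6 was last. HSPA1L stood before HSPA2 with vehicle (means 0.36 and 0.34 TPM) and after it with FeAc (0.39 and 0.625 TPM). Within each group the samples of neighbours in its order did not overlap, except for HSPA1L and HSPA2 in the vehicle group. HSPA8 was the 75th to 102nd most abundant gene of a sample in these 4 samples and held 76.9% to 83.8% of the TPM of the 10 members.

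**Figure D1:**
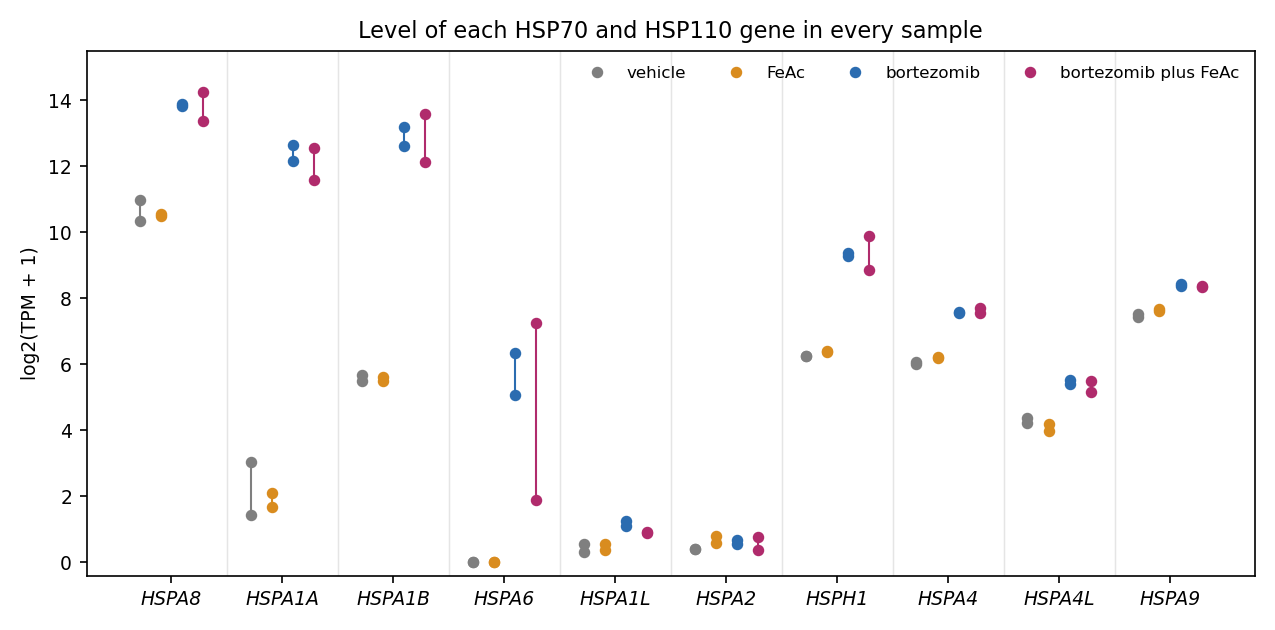
Level of each member in every sample, as log2(TPM + 1), with the points of the 2 samples of a group joined by a line and the 4 groups in separate colours. Every member but HSPA2 lay higher in all 4 samples with bortezomib than in all 4 without it, HSPA1L at levels near or under 1 TPM. The widest line is that of HSPA6 in bortezomib plus FeAc, from 2.73 to 150.3 TPM.

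HSPA1A and HSPA1B, the neighbouring single-exon genes of the stress-induced cytosolic HSP70, showed the widest change with bortezomib of the members above 1 TPM in untreated cells. HSPA1A (ENSG00000204389, chr6:31815464-31817946) was listed at 7.18 and 1.69 TPM with vehicle, 3.34 and 2.20 TPM with FeAc, 6388 and 4569 TPM with bortezomib, and 5993 and 3053 TPM with bortezomib plus FeAc. Its lowest value with bortezomib was thus far above its highest value without, and the vehicle samples lay 4.25 times apart. On the log2(TPM + 1) scale, limma gave a rise of 10.17 (SE 0.52, adjusted p = 0.000378) against vehicle, and of 10.16 (adjusted p = 0.000549) for bortezomib plus FeAc against FeAc.

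HSPA1B (ENSG00000204388, chr6:31827735-31830255) stood at 50.1 and 43.8 TPM with vehicle and at 43.9 and 48.0 TPM with FeAc. It reached 9422 and 6312 TPM with bortezomib and 12243 and 4484 TPM with bortezomib plus FeAc. The groups with and without bortezomib were far apart, while the samples of bortezomib plus FeAc lay on either side of both bortezomib samples. The rise was 7.33 (SE 0.42, adjusted p = 0.00072) against vehicle and 7.30 (adjusted p = 0.000594) for bortezomib plus FeAc against FeAc.

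The split between these paralogs is uncertain. Of the stretches of 50 bases in the HSPA1A transcript, 72.6% occur also in HSPA1B, so that reads from one can be assigned to the other, and HSPA1B further overlaps the transcript AL671762.1 on the same strand. Their sum does not depend on the split and was 57.2 and 45.5 TPM with vehicle, 47.2 and 50.2 TPM with FeAc, 15810.5 and 10881 TPM with bortezomib, and 18235 and 7537 TPM with bortezomib plus FeAc. The mean of the sum was 260 times that with vehicle after bortezomib alone and 264 times that with FeAc after both agents. HSPA1A was assigned 3.71% to 12.5% of the sum in the 4 samples without bortezomib and 32.9% to 42.0% in the 4 samples with it, with no overlap.

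HSPA6 (ENSG00000173110, chr1:161524540-161526910), a single-exon gene of the strictly stress-induced HSP70 found in human but not in mouse, had a listed level of 0 in the vehicle samples, and FeAc samples held 0 and 0.02 TPM. With bortezomib it was at 81.0 and 32.5 TPM, and with bortezomib plus FeAc at 150.3 and 2.73 TPM. All 4 samples with bortezomib were above all 4 without, but the samples of bortezomib plus FeAc differed 55-fold. No fold change is given against a group at 0. The limma test gave an adjusted p of 0.0393 for bortezomib against vehicle and of 0.0685 for bortezomib plus FeAc against FeAc. The call against vehicle held in 8 of 15 alternatives, and it was lost without replicate 1 (adjusted p = 0.256) or replicate 2 (adjusted p = 0.156) of bortezomib. It was also lost without vehicle replicate 1 (adjusted p = 0.191) or 2 (adjusted p = 0.146) and without FeAc replicate 1 (adjusted p = 0.0975) or 2 (adjusted p = 0.116). The remaining loss was that without a filter on low values (adjusted p = 0.134). With only the vehicle and bortezomib samples in the limma fit the call held (adjusted p = 0.00179). The SE of the log2(TPM + 1) difference was 0.40 in that fit and 1.41 in the main fit, which included the samples of bortezomib plus FeAc. For both agents against FeAc the call was gained without replicate 2 of bortezomib plus FeAc (adjusted p = 0.00523) and with a pseudocount of 0.1 (adjusted p = 0.0219). HSPA6 shares 45.5% of its stretches of 50 bases with the pseudogene HSPA7, so that its level may hold reads of that locus.

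HSPA1L and HSPA2, which are known for their high expression in the testis, remained near or under 1 TPM. HSPA1L (ENSG00000204390, chr6:31809619-31815065) was at 0.24 and 0.48 TPM with vehicle, 0.47 and 0.31 TPM with FeAc, 1.40 and 1.14 TPM with bortezomib and 0.91 and 0.85 TPM with both. It lay higher in each sample with bortezomib than in each without, and yet did not pass the test, with a log2 difference of 0.74 (SE 0.27, adjusted p = 0.117) against vehicle. For both agents against FeAc the difference was 0.44 (adjusted p = 0.305). HSPA2 (ENSG00000126803, chr14:64535905-64546173) ranged from 0.31 to 0.76 TPM over the 8 samples, had a mean under 1 TPM in every group and was not tested.

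HSPA8 (ENSG00000109971, chr11:123057489-123063230), the constitutive cytosolic HSP70 that also strips clathrin from vesicles and serves chaperone-mediated autophagy, rose from the highest level of the family to one of the highest of all genes. It stood at 2017 and 1301 TPM with vehicle, 1438 and 1511 TPM with FeAc, 15064 and 14463 TPM with bortezomib, and 19434 and 10536 TPM with both agents. The samples with and without bortezomib did not overlap, and the bortezomib samples were the closest pair relative to their level. The mean with bortezomib was 8.9 times that with vehicle (log2 difference 3.19, SE 0.34, adjusted p = 0.00287), and the mean with both agents was 10.2 times that with FeAc (3.28, adjusted p = 0.00407). HSPA8 became the 3rd to 7th most abundant gene of the samples with bortezomib. About 15.4% of its stretches of 50 bases occur in other genes, mainly in pseudogenes of HSPA8.

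The HSP110-type members, which act as nucleotide exchange factors for HSP70 and help it to dissolve aggregates, rose to different degrees. HSPH1 (ENSG00000120694, chr13:31134974-31162388), the stress-inducible HSP110, was at 74.9 and 75.7 TPM with vehicle, 84.1 and 81.4 TPM with FeAc, 656 and 622 TPM with bortezomib and 954 and 463 TPM with both. Its samples with both agents bracketed the bortezomib samples. The mean was 8.49 times that with vehicle after bortezomib (log2 difference 3.07, SE 0.29, adjusted p = 0.00205), and 8.57 times that with FeAc after both (2.99, adjusted p = 0.00384).

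HSPA4 (ENSG00000170606, chr5:133051962-133106449), a constitutive HSP110, was at 64.0 and 66.8 TPM with vehicle, 73.8 and 71.5 TPM with FeAc, 187 and 191 TPM with bortezomib and 208 and 188 TPM with both. The replicates of each group were close, and the rise was 2.89-fold in mean TPM against vehicle (log2 difference 1.52, SE 0.13, adjusted p = 0.00166) and 2.72-fold for both agents against FeAc (1.43, adjusted p = 0.0029). HSPA4L (ENSG00000164070, chr4:127781821-127840733), its close relative, moved from 19.8 and 17.7 TPM with vehicle to 41.8 and 45.2 TPM with bortezomib, a log2 rise of 1.17 (SE 0.17, adjusted p = 0.00754). It was at 17.3 and 14.7 TPM with FeAc and at 44.5 and 35.05 TPM with both agents, a log2 rise of 1.26 (adjusted p = 0.00798). Neither gene overlapped between samples with and without bortezomib.

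HSPA9 (ENSG00000113013, chr5:138553756-138575724), the mitochondrial HSP70 that pulls imported proteins into the matrix, showed the smallest rise of the members that passed the test. Its level was 174 and 185 TPM with vehicle, 195 and 204 TPM with FeAc, 328 and 342 TPM with bortezomib and 322 and 329 TPM with both agents. The rise was 1.87-fold in mean TPM against vehicle (log2 difference 0.90, SE 0.13, adjusted p = 0.00754) and 1.63-fold for both agents against FeAc (0.71, adjusted p = 0.0183). Its samples were within 1.065 times of each other in every group, including the group in which HSPA6, HSPA1B and HSPH1 lay furthest apart.

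Counted over the family, 7 of the 10 members had a mean of at least 1 TPM without bortezomib, and all 7 rose in both bortezomib comparisons, with an adjusted p below 0.05 and a change of more than 1.5-fold. Among the genes at that level without bortezomib, 6.06% rose against vehicle and 4.78% rose with both agents against FeAc, and over all 14812 genes tested these shares were 6.27% and 4.94%. The median log2 difference of the 7 members was 3.07 against vehicle and 2.99 against FeAc, and that of the genes at the same level was -0.09 and -0.20. HSPA6 and HSPA1L were tested because of their levels with bortezomib, and their inclusion makes 8 of 9 members against vehicle and 7 of 9 against FeAc. The 7 members with at least 1 TPM without bortezomib all lay higher in both treated samples than in both controls, in both comparisons. So did 26.1% of all genes tested against vehicle and 19.4% against FeAc. HSPA6 and HSPA1L also lay higher, but the way they entered the test favoured this. With 2 samples in each group an exact permutation test of a single gene cannot give a two-sided p below 0.333.

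These calls rest on few samples. Of the 9 members, 3 were called against vehicle without bortezomib replicate 1, 4 without bortezomib replicate 2 and 5 without vehicle replicate 1, and 3 were called against FeAc without FeAc replicate 1 or replicate 2, a lone sample being assumed to vary like the other groups. HSPA1A, HSPA1B and HSPA4 were called in both comparisons under every alternative run, and HSPA9 was called in 12 of 15 against vehicle and in 9 of 15 against FeAc.

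**Figure D2:**
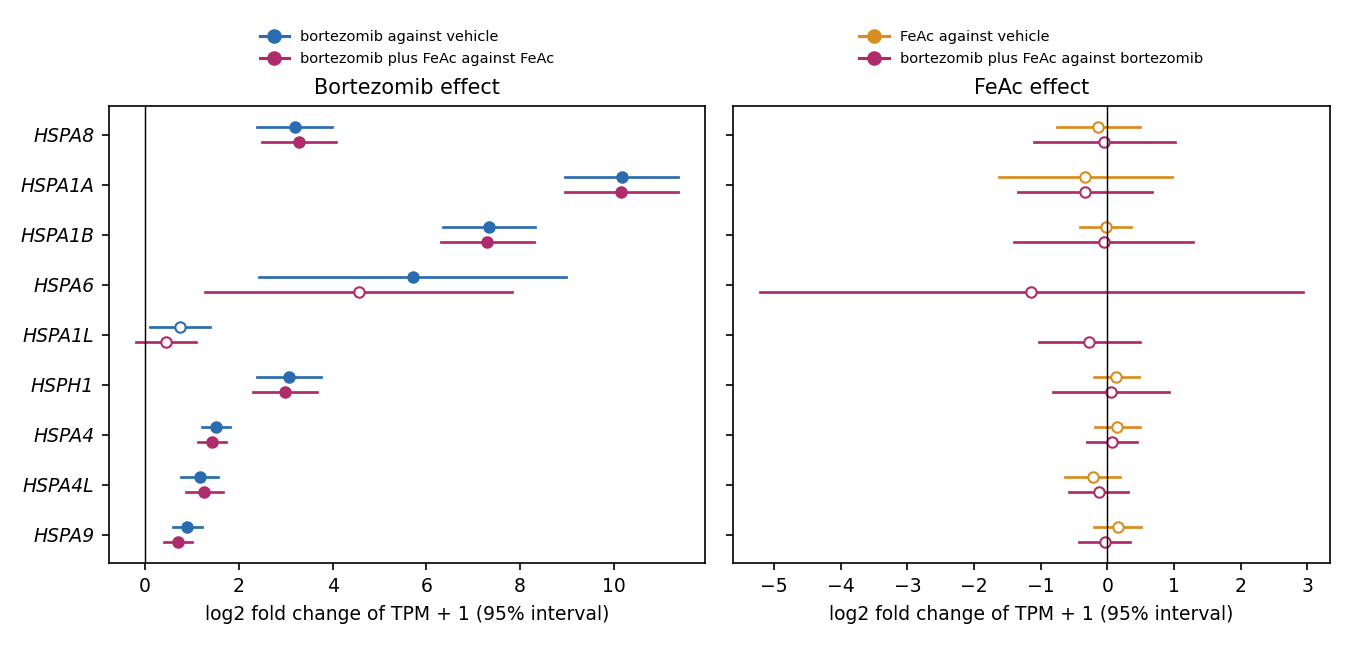
Log2 difference of TPM + 1 with its 95% interval for 9 members, for bortezomib with and without FeAc on the left and for FeAc with and without bortezomib on the right, with filled points for members that passed the limma test. The filled points on the left run from 0.71 for HSPA9 with both agents against FeAc to 10.17 for HSPA1A against vehicle, and the open ones there are HSPA1L in both comparisons and HSPA6 for both agents against FeAc. All intervals for FeAc include 0, and the values of HSPA6 depend on the 1 TPM added because it was at or near 0 without bortezomib.

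HSPA1A and HSPA1B rose further than HSPA8, and the make-up of the family changed along with its size. The 10 genes held 0.242% and 0.170% of all TPM with vehicle, 0.186% and 0.194% with FeAc, 3.23% and 2.67% with bortezomib and 3.96% and 1.92% with both agents. HSPA8 fell to 46.8% to 55.2% of the members' TPM in the 4 samples with bortezomib. The order of mean levels with bortezomib became HSPA8, HSPA1B, HSPA1A, HSPH1, HSPA9, HSPA4, HSPA6, HSPA4L, HSPA1L and HSPA2. In it the samples of HSPA1B and HSPA1A and those of HSPA6 and HSPA4L overlapped with bortezomib alone. With both agents HSPA8 and HSPA1B, HSPA1B and HSPA1A, and HSPA6 and HSPA4L overlapped, so that these neighbours cannot be ordered beyond their spread.

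No member changed detectably with FeAc alone. Of the 7 members tested, 0 were called by limma and 0 had an unadjusted p under 0.05, with 0.0143% of the 13998 genes tested called in either direction. The study reported far more genes changed by FeAc in MM.1S cells at the same fold and adjusted p limits. The cause of that gap was not tested, and the lack of calls here does not show a lack of change. The log2 difference was -0.03 for HSPA1B (95% interval -0.40 to 0.35) and -0.14 for HSPA8 (-0.76 to 0.49), and it was -0.33 for HSPA1A (-1.63 to 0.96), which lay low in both groups. The intervals were narrower for HSPA4, at 0.15 (-0.19 to 0.49), HSPA9, at 0.15 (-0.20 to 0.50), and HSPH1, at 0.13 (-0.20 to 0.47). HSPA4L had a difference of -0.22 (-0.64 to 0.19). HSPA4, HSPA9 and HSPH1 exceeded the vehicle samples in each FeAc sample and HSPA4L lay below them, which makes 4 of 7 without overlap, where 33.8% of all genes tested did not overlap. Adjusted p-values of the 7 members were 0.891 to 0.968. The signs of the differences of HSPA8, HSPA1B and HSPA1A turned without vehicle replicate 1, to 0.18, 0.06 and 0.47, and that of HSPA1B also without FeAc replicate 1, to 0.03.

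Adding FeAc to bortezomib gave no detectable change of any member either, and here the spread between the samples was wide. Of the 9 members tested, 0 were called by limma and 0 had an unadjusted p under 0.05, with 0.00721% of 13865 genes called in either direction. HSPA1L was lower in both samples with both agents and was the only member of the 9 without overlap, where 22% of all genes tested did not overlap. The log2 difference was -0.34 for HSPA1A (95% interval -1.35 to 0.67), -0.06 for HSPA1B (-1.40 to 1.28), -0.04 for HSPA8 (-1.10 to 1.01), 0.06 for HSPH1 (-0.82 to 0.93) and -1.14 for HSPA6 (-5.21 to 2.93). These intervals do not exclude a change of 1.5-fold in either direction. The difference was 0.06 for HSPA4 (-0.31 to 0.44), -0.13 for HSPA4L (-0.58 to 0.31) and -0.04 for HSPA9 (-0.42 to 0.34), intervals that exclude it on the log2(TPM + 1) scale.

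The spread within the group given both agents differed between members. Replicate 1 exceeded replicate 2 by 55 times for HSPA6, 2.73 times for HSPA1B, 2.06 times for HSPH1, 1.96 times for HSPA1A and 1.84 times for HSPA8, but by 1.27 times for HSPA4L and 1.11 times for HSPA4, and the ratio was 0.977 for HSPA9. Of the 14812 genes, 0.122% lay at least as far apart in this group as HSPA6, 2.56% as HSPA1B, 6.2% as HSPH1, 9.44% as HSPA8 and 92.5% as HSPA9. The bortezomib replicates differed in the same direction by 2.49 times for HSPA6, 1.49 times for HSPA1B and 1.4 times for HSPA1A, and by 1.05 times or less for HSPH1 and HSPA8. Mitochondrially encoded transcripts took 2.99% and 10.1% of the TPM in replicates 1 and 2 with both agents, and 5.49% and 8.23% in those with bortezomib alone, and their part in this spread was not tested. Without replicate 2 of both agents, the FeAc difference under bortezomib was 0.67 for HSPA1B (adjusted p = 0.462), 0.40 for HSPA8 (adjusted p = 0.489), 0.15 for HSPA1A, 0.04 for HSPA4L and 1.53 for HSPA6, each turned in sign and none called.

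**Figure D3:**
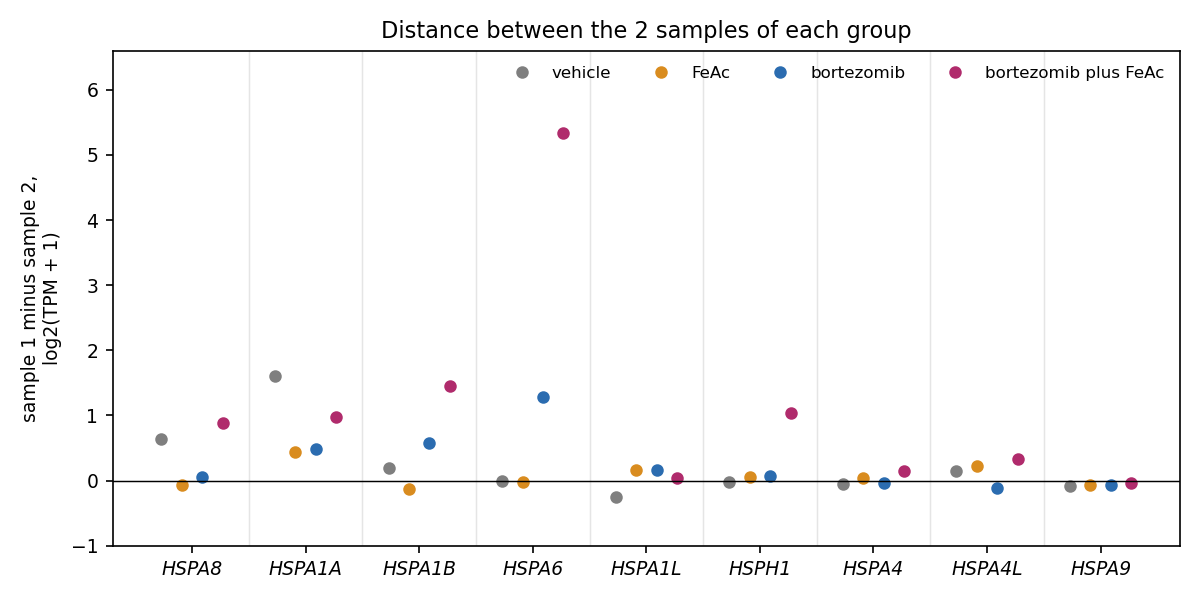
Difference between replicate 1 and replicate 2 of each group, in log2(TPM + 1), for the 9 members tested. In the group given both agents HSPA6, HSPA1B, HSPH1, HSPA1A and HSPA8 lie well above 0, whereas HSPA4, HSPA1L and HSPA9 lie near it.

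The effect of FeAc did not differ detectably between cells with and without bortezomib. In the test of that difference, which used all 8 samples, 0 of 9 members were called by limma, 0 had an unadjusted p under 0.05, and 0.00675% of 14812 genes were called in either direction. The log2 differences of the members ran from -1.16 for HSPA6 (95% interval -5.78 to 3.47) to 0.09 for HSPA8 (-1.03 to 1.22), with adjusted p-values of 0.983 to 1.0. The narrowest intervals were those of HSPA4, -0.09 (-0.51 to 0.34), and HSPA9, -0.19 (-0.62 to 0.24).

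The partners of HSP70 were described from lists of 41 genes. Of the 41 gene IDs tested, 16 rose and 1 fell with bortezomib against vehicle, and 16 rose and 1 fell with both agents against FeAc. Of all 14812 genes tested, 6.27% rose and 5.89% fell against vehicle, and 4.94% rose and 8.86% fell with both agents against FeAc. None of them was called in either FeAc comparison or in the interaction by limma, where 2, 0 and 0 had an unadjusted p under 0.05. The 2 were HSF4, with a difference of 0.70 with FeAc against vehicle, and HSBP1, with -0.51.

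Among the cytosolic J-domain partners, which hand clients to HSP70, 8 of 10 rose against vehicle, with a median log2 difference of 1.46 where the median of all genes was -0.06. DNAJB1, the main J-domain protein of the heat shock response, rose by 5.27 (adjusted p = 0.00205), from 55.3 and 49.98 TPM to 2593 and 1641 TPM. DNAJA4 rose by 3.35 (adjusted p = 0.00247) and DNAJB2 by 2.43 (adjusted p = 0.00166). With both agents DNAJB1 stood at 3506 and 1021 TPM, so that its replicates lay apart in the same direction as those of HSPA1B.

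Of the BAG and other nucleotide exchange factors 1 of 6 rose, BAG3, which links HSP70 to selective autophagy, by 4.67 (SE 0.44, adjusted p = 0.00205), and the list had a median of 0.11. HSPBP1 had a difference of 0.37 (adjusted p = 0.209) and BAG5 one of 0.12 (adjusted p = 0.69). Of the adaptors and HSP90 genes 4 of 5 rose, with a median of 1.87. HSP90AB1, a constitutive cytosolic HSP90, rose by 2.48, ST13, which stabilises HSP70 bound to ADP, by 1.87, and STIP1, which joins HSP70 to HSP90, by 1.43 (adjusted p = 0.00205, 0.00268 and 0.00268).

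The list of the mitochondrial HSP70 machine also held the matrix chaperonin. Of its 10 genes 2 rose and 1 fell, beside 6.27% and 5.89% of all genes, with a median of 0.20. The risers were HSPD1 (2.28, adjusted p = 0.00432) and HSPE1 (2.21, adjusted p = 0.0103), the matrix chaperonin and its lid, which form a chamber separate from HSPA9. DNAJC19, a J-domain protein of the import motor, fell by 0.83 (adjusted p = 0.0229). Among the other HSP70 superfamily members 1 of 6 gene IDs tested rose, HSPA5, the HSP70 of the endoplasmic reticulum, by 1.56 (SE 0.17, adjusted p = 0.00287), from 210 and 263 TPM to 681 and 706 TPM. HYOU1, its exchange factor, had a difference of 0.60 (adjusted p = 0.122), and the ID of HSPA14 with the smaller adjusted p had one of 0.57 (adjusted p = 0.0407), just under the 1.5-fold limit. The other and more abundant ID of HSPA14 had a difference of -0.23 (adjusted p = 0.424). None of the 3 heat shock factor genes and HSBP1, which codes for a binding protein of heat shock factor 1, passed limma's test, and 1 of the 4 had an unadjusted p under 0.05. HSF4 had a difference of 0.84 (adjusted p = 0.113), HSBP1 one of 0.39 and HSF2 one of 0.28.

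**Figure D4:**
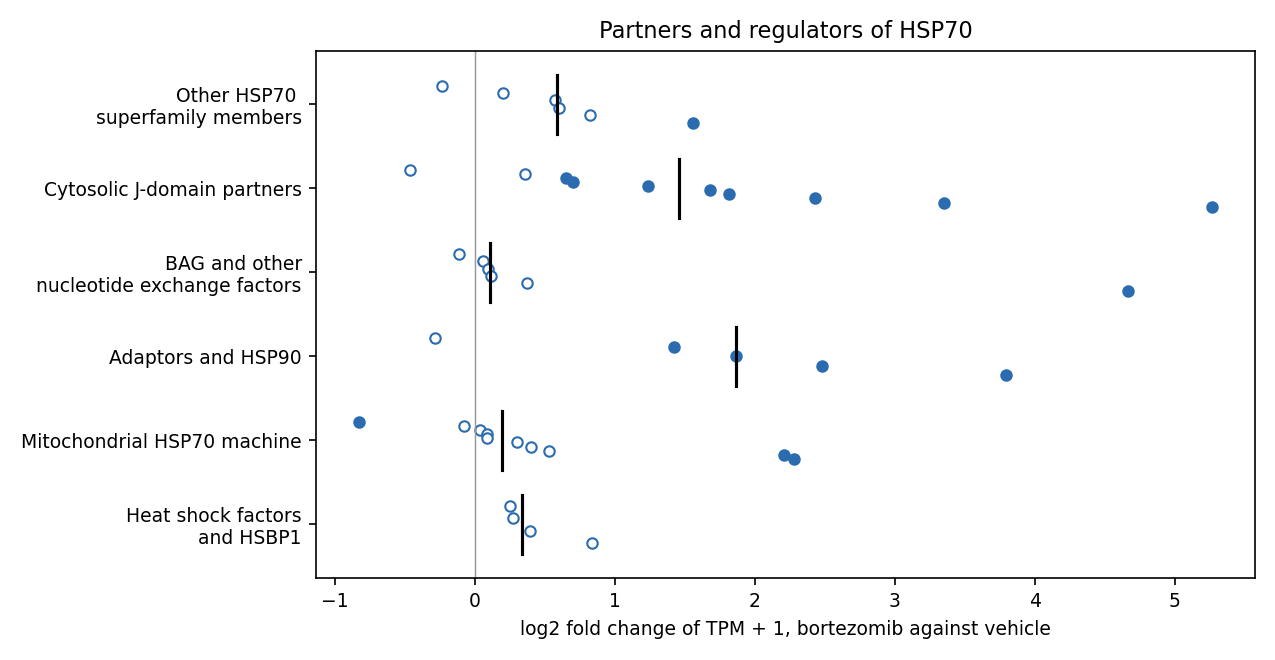
Log2 difference of TPM + 1 for bortezomib against vehicle of each partner gene, by list, with filled points for genes that passed the limma test and a black bar at the median of the list. The medians run from 0.11 for the exchange factors to 1.87 for the adaptors and HSP90, and BAG3 and DNAJB1 lie furthest to the right.

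Genes outside the family with the most similar profile were sought among the 9586 genes that averaged 5 TPM or more over the samples, by the root mean square distance of log2(TPM + 1) values centred on their mean over the 8 samples. This is a description, since the 8 samples fall into groups with and without bortezomib. HSPA1B lay nearest to FCGR2C, at a distance of 0.838, then to DNAJB1 at 1.12 and to HMOX1, the haem oxygenase, at 1.27. The same genes were nearest to HSPA1A, but at 0.926, 2.58 and 2.71, so that DNAJB1 and HMOX1 lay far from it. The profiles were not scaled, so that genes which rise to different degrees lie apart even where their patterns are alike. The distances of HSPA1A and HSPA1B also depend on the uncertain split of reads between them. HSPA8 lay nearest to DNAJA4 at 0.136, and OSGIN1 was among its nearest genes at 0.247. Among the genes nearest to HSPH1 were SLC7A11, the cystine transporter subunit, at 0.181 and DNAJA4 at 0.188. HSPA9 lay nearest to TRG-AS1 at 0.0427, LARP4 at 0.0531 and LIMS1 at 0.0562.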

How the data were processed

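RNA of MM.1S cells was sequenced from 8 samples. The authors deposited 2 tables of normalised expression, 1 for the groups without bortezomib and 1 for those with it, whose sample columns were read as TPM because each sample summed to 994968 to 996780, no unit being named. The tools in the submitters' processing notes are DESeq2, edgeR, HISAT2, RSEM and StringTie, with the build GRCh38.p13 and no versions or roles. Annotation release and use of strand were not given in the sources used here. Columns with fold changes, p-values, calls and means that the authors computed are also in the tables and were not used. Depth is unknown because TPM hold no counts, which leaves no way to give counting intervals or a limit for values of 0. The study names 2 biological replicates, and where these were not separate cultures p-values measure the spread between samples alone.

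The tables were joined on 60671 gene IDs, and all carried the same symbol in both. Genes that averaged 1 TPM or more in a group of the fit were tested on log2(TPM + 1) with limma-trend (limma 3.58.1, R 4.3.3) with Benjamini-Hochberg adjustment over all genes tested, and called when the adjusted p was below 0.05 and the change above 1.5-fold. Fold changes on this scale understate the change of low genes. The FeAc comparisons were fitted within their table, and the bortezomib comparisons and the interaction in 1 fit of all 8 samples. The test was also run on simulated data in which every group had the same spread, so that run does not vouch for the calls made here. In the real data the median log2 distance between replicates over all genes was 0.164 with bortezomib and 0.313 with both agents.

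Of the gene IDs, 96.3% were found in GENCODE release 29 (GRCh38), which gave positions and transcripts. All 10 members had a promoter window in RefSeq, 12 in all. Alternatives were a pseudocount of 0.1, no filter, median-of-ratios scaling, the replicate number as a block, other samples in the fit, no fold limit and each sample left out, and, chosen after seeing the data, the sum of HSPA1A and HSPA1B and a crossed block. The members and lists were chosen with earlier results of these data known. Named genes were the 10 members, up to 3 genes per list with the smallest adjusted p for bortezomib against vehicle, and the 3 nearest profiles for 5 members, some of which are not reported here. HSPA7, AL671762.1, HSBP1 and the genes beside HSPA6 were named outside this rule, after their values were seen.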

Additional observations from a re-analysis of the deposited data

How the results depend on the processing

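Depth is unknown, and each group held 2 samples. No member was called with FeAc, with or without bortezomib, or in the interaction under any alternative run. With FeAc against vehicle the count of genes called went from 2 to 4 with a pseudocount of 0.1, 0 without a filter and 1 with all 8 samples, and with FeAc added to bortezomib it went from 1 to 0 without a filter and 0 with all 8 samples. In the interaction it went from 1 to 0 with a pseudocount of 0.1 and 0 without a filter. Genes that rose with bortezomib fell in number from 928 to 513 without a filter, and with both agents against FeAc from 732 to 339 without a filter and 89 with the 2 groups alone, where HSPA9 and HSPA4L were no longer called and 5 members rose. The cause was not tested. Scaling by the median of ratios moved the median of all genes by 0.17 for both agents against FeAc and by 0.12 for the interaction, and the interaction values of HSPH1, HSPA4, HSPA1B and HSPA1A turned to 0.061, 0.051, 0.11 and 0.12. With a pseudocount of 0.1 that of HSPA1A turned to 0.023.

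The labels do not say whether samples with the same replicate number were paired. The correlation of replicate 1 deviations between groups, over all genes, ran from -0.148 to 0.186, which cannot decide it. With the replicate block, 23 genes were called with FeAc against vehicle and 0 in the interaction, and a crossed pairing gave 16 for FeAc.

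With each sample left out in turn, 0 to 0 genes were called in either FeAc comparison and 5 to 18 in the interaction. Genes that rose numbered 68 to 1013 with bortezomib and 28 to 960 with both agents against FeAc, and members 3 to 8 in each. The difference with FeAc against vehicle ran from -0.45 to 0.18 for HSPA8, -0.12 to 0.065 for HSPA1B and -1.13 to 0.47 for HSPA1A. With FeAc added to bortezomib it ran from -0.78 to 0.67 for HSPA1B, -0.46 to 0.58 for HSPH1, -0.011 to 0.14 for HSPA4, -0.49 to 0.40 for HSPA8, -0.30 to 0.035 for HSPA4L, -3.81 to 1.53 for HSPA6 and -0.82 to 0.15 for HSPA1A. The interaction ran from -0.35 to 0.53 for HSPA8, -0.75 to 0.70 for HSPA1B, -0.81 to 0.80 for HSPA1A, -0.078 to 0.26 for HSPA4L, -0.60 to 0.44 for HSPH1 and -3.83 to 1.52 for HSPA6.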

Other observations

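The gene whose profile lay nearest to HSPA1A and HSPA1B, FCGR2C, encodes or resembles a receptor for immunoglobulin G and is no chaperone. It was listed at 2.47 and 0.61 TPM with vehicle, 0.62 and 0.89 TPM with FeAc, 1191 and 665 TPM with bortezomib, and 2247 and 279 TPM with both agents. All 4 samples with bortezomib were thus far above all 4 without, and the replicates with both agents lay apart in the same direction as those of HSPA6. In GENCODE release 29 FCGR2C (chr1:161581339-161605662, plus strand) ends 628 bases before HSPA7 (chr1:161606291-161608217, plus strand), the pseudogene that shares sequence with HSPA6, and HSPA6 itself lies on the same strand of the same cluster. HSPA7 was at 0 TPM with vehicle, 0.04 and 0 TPM with FeAc, 7.16 and 3.38 TPM with bortezomib and 10.6 and 1.22 TPM with both agents. The other receptor genes of the cluster did not share the pattern, with FCGR2A at 0 to 0.24 TPM, FCGR2B at 1.94 to 2.98 TPM and FCGR3A and FCGR3B listed at 0 in all 8 samples. No stretch of 50 bases of the HSPA6 transcript occurs in a release 29 transcript of FCGR2C, and for the transcript models behind the deposited values no source used here gives a release.

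AL671762.1, the transcript that overlaps HSPA1B on the same strand, was at 5.02 and 1.69 TPM with vehicle, 9.04 and 0.15 TPM with FeAc, 117 and 70.1 TPM with bortezomib and 132 and 46.5 TPM with both agents. It shares 35.3% of the stretches of 50 bases of HSPA1B, so that reads of the 2 genes could not be told apart over that part.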
